A study of Mus musculus with 3 samples.

Results

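The genes described here are 10 that growth factors switch on through the ERK cascade, *Fos*, *Fosl1*, *Egr1*, *Jun*, *Junb*, *Myc*, *Dusp6*, *Spry2*, *Spry4* and *Etv4*. They were taken by gene symbol from the annotation of a 3D-Gene mouse microarray. Of the 23473 gene probes, 9 carried one of these symbols, 1 probe for each of 9 genes, and *Fosl1* is not analysed here. RNA came from cultured intrahepatic biliary epithelial cells (BECs), which line the bile ducts, purified from female BALB/c mice aged 8 weeks. Control BECs grew in medium with Nu-serum, a growth supplement, and EGF, insulin and forskolin, a drug that raises cyclic AMP. Senescence was induced for 4 to 7 days in serum-depleted medium or in medium with 200 μM glycochenodeoxycholic acid (GCDC), a conjugated bile acid. That range is given by the labels, while the study's text names its longest time for the arrays. The sources used here do not state which of the other supplements stayed in the depleted medium. Each condition was measured on 1 array with RNA pooled from 2 independent experiments, so no difference below has a replicate check and no test between conditions was possible.

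Immediate early genes are transcribed within minutes of a growth signal, without new protein synthesis, from promoters bound by factors that are already present. EGF and serum activate the receptor, Ras, Raf, MEK and ERK in turn, ERK phosphorylates factors such as Elk1, and *Fos*, *Egr1* and others are induced. Feedback genes, among them the ERK phosphatase *Dusp6* and the Sprouty inhibitors, are induced by the same cascade and dampen it. The arrays here were taken after days of treatment, so they show sustained levels and not the first wave of induction.

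*Fos*, *Egr1* and *Myc* fell more than 2-fold in serum-depleted BECs. With the main scaling of the arrays, none of the 9 genes fell as much in GCDC-treated BECs. Under 7 other ways to make the values, *Junb* and *Dusp6* fell in serum depletion in 5 and 3, and *Myc* fell in GCDC in 3. *Fos*, *Junb*, *Egr1* and *Dusp6* were more than 2-fold lower in serum depletion than in GCDC. *Dusp6* was the 1 gene that rose, in GCDC, by a fold that was common among probes of its level. *Jun*, *Spry2*, *Spry4* and *Etv4* stayed within 2-fold between every pair of arrays with the main scaling.

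A level is the intensity of a probe above the blank spots of its array, scaled so that the median valid gene probe of each array is 25. A probe counted as valid if its intensity exceeded the mean of the blanks by over 2 of their SD. All 9 probes were valid on all 3 arrays, as were 12 of 12 cholangiocyte markers found, with *Krt19* at levels of 13442, 11882 and 27738 (control, serum depletion, GCDC). Markers of other cells were mixed. Some were near the background, with the hepatocyte gene *Alb* at 3.66, 2.34 and 3.44, the leukocyte gene *Ptprc* at 2.62, 1.83 and 2.49, the macrophage gene *Adgre1* valid on no array and the endothelial gene *Pecam1* valid on the control array alone, at 1.16. Others were well above it, with *Cd14* at 1469, 2278 and 2792, *Hnf4a* at 134.9, 132.8 and 108.5, *Ttr* at 36.9, 288.2 and 50.4, *Fgb* at 55.5, 104.1 and 83.4, *Csf1r* at 42.1, 45.1 and 52.1 and *Kdr* at 20.4, 49.1 and 50.8. The summed level was 1572, 2385 and 2929 over the 11 macrophage markers, 283.3, 590.9 and 310.2 over the 12 hepatocyte markers and 58.0, 101.9 and 104.7 over the 10 endothelial markers. The sums of these 3 lists were lowest on the control array, and *Cd14* made up most of the macrophage sum. The same order was not particular to other cells, since the 12 cholangiocyte markers summed to 90482, 96753 and 142454. The sums were also lowest on control for the lymphocyte markers (36.0, 55.8 and 49.2) and the mesenchymal markers (89.3, 123.7 and 110.8). The part of other cells in the ratios of the 9 genes was not tested. With 1 array a condition, the measures of error are technical. The 24 spots of each of 2 positive controls spread by 0.161, 0.196 and 0.146 (SD, log2 scale) on the 3 arrays. This spread and the SD of the blanks were combined into a spot SD for each log2 ratio, which leaves out differences between cultures and hybridisations. Only changes past 2-fold, that is 1 on the log2 scale, are called a rise or a fall. Over all probes compared, serum depletion over control had a median log2 ratio of 0.16, GCDC over control of 0.23 and serum depletion over GCDC of -0.08.

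The promoters of *Fos*, *Junb* and *Dusp6*, the genes with the largest differences between serum depletion and GCDC, are shown beside that of *Jun*, which did not differ more than 2-fold. The 250 bases before the start of each gene come from RefSeq in build GRCm38.p6, at chr12:85473640-85473889 for *Fos* (plus strand), chr8:84978749-84978998 for *Junb* (minus strand), chr10:99262981-99263230 for *Dusp6* (plus strand) and chr4:95052223-95052472 for *Jun* (minus strand). Capitals mark matches to the motifs named in the next paragraph, and each sequence reads 5′ to 3′ towards the gene.
Fos: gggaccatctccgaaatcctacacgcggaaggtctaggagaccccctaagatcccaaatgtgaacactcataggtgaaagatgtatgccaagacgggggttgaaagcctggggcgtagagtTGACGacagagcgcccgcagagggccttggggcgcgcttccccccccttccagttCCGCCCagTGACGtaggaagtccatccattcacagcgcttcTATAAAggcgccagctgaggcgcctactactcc
Junb: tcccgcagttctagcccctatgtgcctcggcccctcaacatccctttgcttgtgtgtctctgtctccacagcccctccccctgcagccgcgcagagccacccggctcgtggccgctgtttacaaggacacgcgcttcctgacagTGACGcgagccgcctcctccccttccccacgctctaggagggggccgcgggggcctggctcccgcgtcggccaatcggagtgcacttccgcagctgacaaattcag
Dusp6: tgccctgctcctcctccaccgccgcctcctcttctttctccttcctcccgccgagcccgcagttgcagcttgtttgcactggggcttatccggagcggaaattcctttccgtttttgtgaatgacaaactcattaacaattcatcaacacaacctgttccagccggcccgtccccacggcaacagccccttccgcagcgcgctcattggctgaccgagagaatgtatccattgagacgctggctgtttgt
Jun: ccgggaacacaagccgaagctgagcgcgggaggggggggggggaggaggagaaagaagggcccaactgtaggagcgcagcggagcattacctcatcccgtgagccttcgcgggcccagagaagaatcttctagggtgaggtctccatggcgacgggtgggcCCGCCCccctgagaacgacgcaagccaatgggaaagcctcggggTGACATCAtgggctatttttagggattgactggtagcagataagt

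Both strands were searched for the CArG box that serum response factor binds, the AP-1 site TGANTCA, the longer AP-1 and ATF site TGANNTCA, the cyclic AMP response element TGACGTCA and its core TGACG, the Ets site CCGGAA, the Egr1 site GCGTGGGCG, the E-box CACGTG, the GC box GGGCGG and the TATA box TATAAA. The core TGACG is part of the full response element, which is itself a case of TGANNTCA. *Fos* held the TGACG element 129 and 66 bases before the start, a GC box on the opposite strand and a TATA box 33 bases before the start. *Junb* held 1 TGACG element, 106 bases before the start. *Jun* held TGANNTCA, 45 bases before the start, and a GC box on the opposite strand. *Dusp6* held none of these letters in this window. Of 32851 promoters in the table, 17.8% held the TGACG element, 32.7% the GC box, 12.4% the TATA box, 11.9% TGANNTCA and 1.47% the CArG box, which none of the 4 windows held. These matches are letters in a sequence, and no binding was measured. Bases further upstream than the windows were not searched, so the presence of a CArG box there was not tested for any of these genes.

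**Figure D1:**
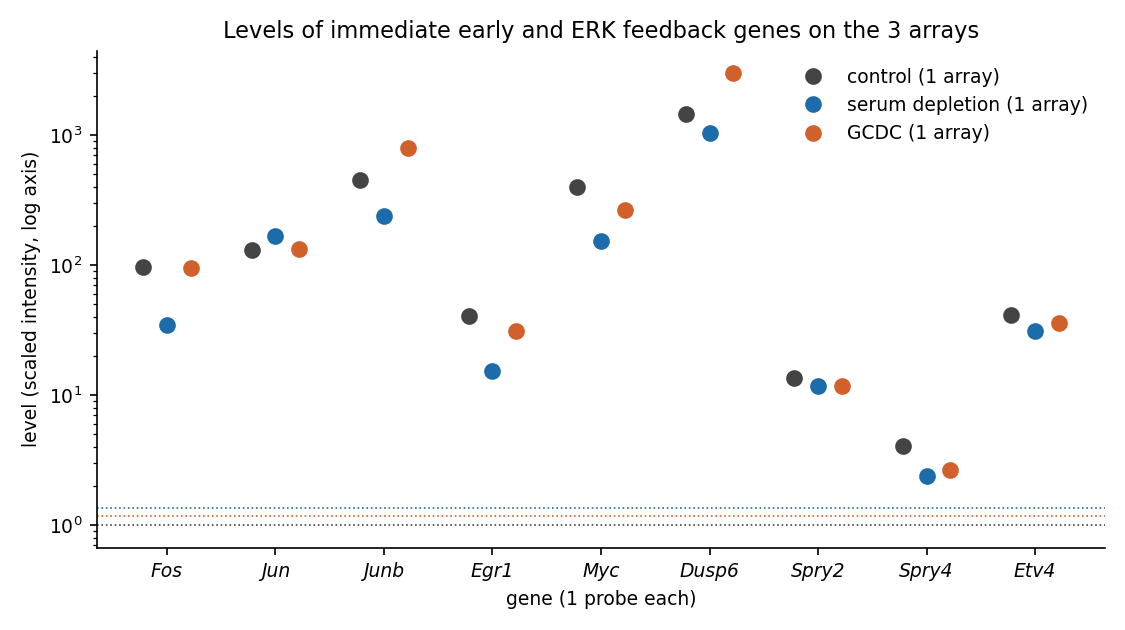
Levels of the 9 genes on the control, serum depletion and GCDC arrays, 1 point per array on a log axis, with dotted lines at the limit of validity of each array. *Fos*, *Egr1* and *Myc* are lowest on the serum depletion array, *Dusp6* and *Junb* are highest on the GCDC array, and *Spry4*, between 2.37 and 4.07, lies closest to the limits.

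*Fos* and *Jun* encode partners in AP-1, a dimer that binds DNA and drives genes of growth and matrix remodelling, and *Junb* encodes a Jun family member that often acts as a weaker partner. The level of *Fos* was 96.8 on the control array, 34.6 in serum depletion and 95.4 in GCDC. *Fos* thus fell 2.80-fold in serum depletion (log2 ratio -1.49, spot SD 0.25), while its GCDC and control levels differed by less than the spot SD (-0.02, spot SD 0.22). *Jun* was at 131.8, 166.7 and 132.8, and its log2 ratios to control were 0.34 (spot SD 0.25) in serum depletion and 0.01 (spot SD 0.22) in GCDC. The *Jun* level was thus highest on the array where the *Fos* level was lowest, though by less than 2-fold. With no scaling between arrays the log2 ratio of *Jun* to control there was -0.11. *Junb* was at 452.5, 236.8 and 795.0, with log2 ratios to control of -0.93 (spot SD 0.25) in serum depletion and 0.81 (spot SD 0.22) in GCDC. With the main scaling neither of these ratios passed 2-fold, and they lay on opposite sides of control.

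*Egr1*, a zinc finger factor that serum and EGF induce within minutes, was at 41.0 on the control array, 15.4 in serum depletion and 31.1 in GCDC. It fell 2.65-fold in serum depletion (log2 ratio -1.41, spot SD 0.26), and its log2 ratio in GCDC was -0.40 (spot SD 0.22). *Myc*, a factor that drives ribosome synthesis and cell cycle entry, was at 398.8, 151.9 and 265.0. It fell 2.63-fold in serum depletion (-1.39, spot SD 0.25) and had a log2 ratio of -0.59 (spot SD 0.22) in GCDC. For both genes the GCDC level lay between the control and the serum depletion level.

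With the main scaling, the feedback genes and *Etv4* all stayed within 2-fold of control in serum depletion. *Dusp6*, the phosphatase that switches off ERK in the cytoplasm, was at 1442 on the control array, 1033 in serum depletion and 2981 in GCDC. It rose 2.07-fold in GCDC (log2 ratio 1.05, spot SD 0.22) and had a log2 ratio of -0.48 (spot SD 0.25) in serum depletion. *Spry2*, an inhibitor of signalling from receptor tyrosine kinases, was at 13.7, 11.8 and 11.7, and both log2 ratios to control, -0.22 and -0.22, were smaller than the spot SD. *Etv4*, an Ets factor induced downstream of ERK, was at 41.7, 31.2 and 35.6, with log2 ratios of -0.42 (spot SD 0.26) and -0.23 (spot SD 0.22). *Spry4*, another Sprouty inhibitor, was at 4.07, 2.37 and 2.68, only 8.15, 3.48 and 4.55 SD of the blanks above them. Its log2 ratio to control was -0.78 in serum depletion, with a spot SD of 0.52, and -0.60 in GCDC, with a spot SD of 0.42. These SDs were the largest of the 9 genes, so changes under 2-fold were poorly resolved by this probe.

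**Figure D2:**
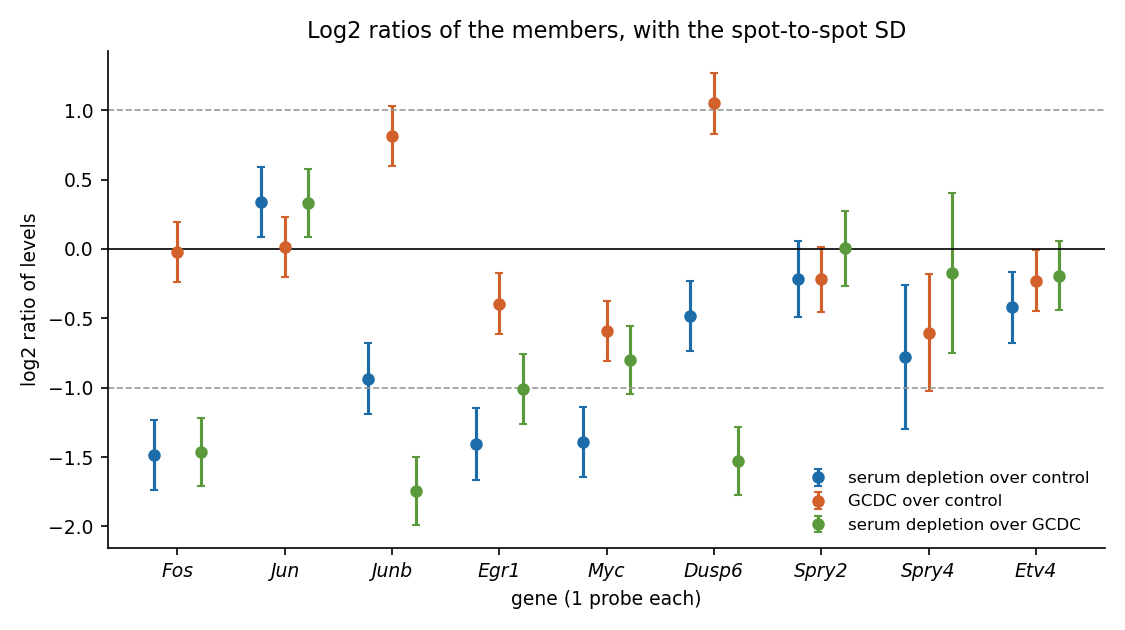
Log2 ratios of the 9 genes for serum depletion over control, GCDC over control and serum depletion over GCDC, with bars of 1 spot SD and dashed lines at 2-fold. *Fos*, *Egr1* and *Myc* lie below the lower line in serum depletion over control, and *Dusp6* alone lies above the upper line in GCDC over control, by less than 1 spot SD.

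In serum depletion over control 3 of 9 genes fell and none rose, where 11.1% of all 19809 probes compared fell and 13.5% rose. The median log2 ratio of the 9 was -0.78, against 0.16 over all probes, and 8 of 9 lay below this median of all probes. The gene just inside the threshold was *Myc*, at -1.39, and the next outside was *Junb*, at -0.93. In GCDC over control 1 of 9 rose and none fell, where 13.0% of 20087 probes rose and 8.51% fell, and the median of the 9 was -0.22 against 0.23. Both sets of ratios share the control array. The 1 rise in GCDC is near the share of all probes, and the 3 falls in serum depletion are a larger share than that of all probes, from 9 genes on 1 array. All 9 genes span at most 15.6 kb in the annotation, and probes of genes up to that span rose more often (18.3% in serum depletion, 18.1% in GCDC) and fell less often (6.62% and 4.62%) than all probes. The part of gene span in these ratios was not tested.

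The ratios to control also depended on level, which bears on *Dusp6* and *Junb*. Of 681 probes within 2-fold of the level of *Dusp6*, 43.0% rose in GCDC over control, their median log2 ratio was 0.86, and *Dusp6* lay only 0.19 above it. For *Junb* the median of 1833 such probes was 0.62, and *Junb* lay 0.19 above it. In GCDC the ratios of both genes were therefore near those of other probes of their level. In serum depletion, by contrast, *Dusp6* lay 1.23 and *Junb* 1.32 below the median of probes of like level, 0.75 and 0.38. *Myc* lay 1.69 below its median of 0.29, *Fos* 1.51 below 0.03 and *Egr1* 1.43 below 0.02. At like level 7.24% of probes fell as far as 2-fold for *Myc*, 15.0% for *Fos* and 17.1% for *Egr1*. In GCDC *Myc* lay 1.03 below its median of 0.44.

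**Figure D3:**
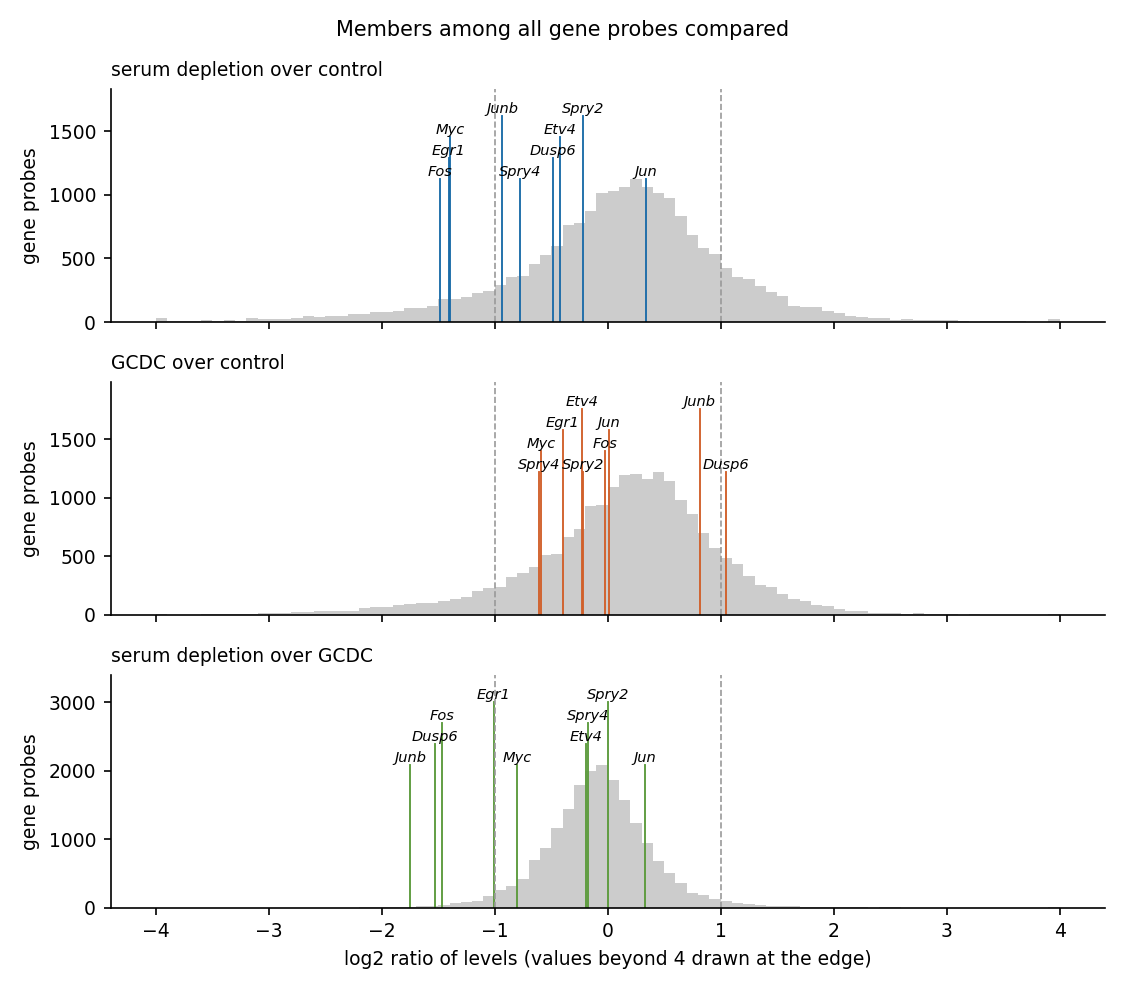
Histograms of the log2 ratio of all gene probes valid on both arrays of a comparison, in bins of 0.1, with a coloured line at each of the 9 genes and dashed lines at 2-fold. In serum depletion over control *Fos*, *Egr1* and *Myc* lie in the lower tail with 11.1% of probes past 2-fold, and in the narrower distribution of serum depletion over GCDC *Junb*, *Dusp6*, *Fos* and *Egr1* lie past 2-fold on the lower side, as do 2.92% of probes.

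The direct comparison of serum depletion with GCDC leaves out the control array and was the narrower distribution. Here 4 of 9 genes were more than 2-fold lower in serum depletion and none was higher, where 2.92% of 19751 probes were lower and 2.20% higher. *Junb* was 3.36-fold lower in serum depletion (log2 ratio -1.75, spot SD 0.24), below all but 0.294% of probes. *Dusp6* was 2.89-fold lower (-1.53, spot SD 0.24), with 0.552% of probes below it, and *Fos* 2.76-fold lower (-1.46, spot SD 0.25), with 0.694% below it. These 3 genes were also apart from probes of like level, whose medians lay between -0.11 and -0.03. *Egr1* was 2.02-fold lower (-1.01, spot SD 0.25), a value within 1 spot SD of the threshold, and *Myc*, at -0.80 (spot SD 0.24), was just outside it. *Jun* was at 0.33 (spot SD 0.24), on the other side of 0 from *Fos* and *Junb*, its partners in AP-1. *Spry2* (0.00), *Spry4* (-0.17) and *Etv4* (-0.19) differed between the treatments by less than their spot SD. The median over the 9 genes was -0.80, against -0.08 over all probes.

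The scaling between arrays moved the ratios to control more than the direct comparison. Under 7 other ways to make the values, the log2 ratio of *Junb* in serum depletion over GCDC stayed between -1.75 and -1.40 and that of *Dusp6* between -1.53 and -1.33, past 2-fold in all 7. *Fos* passed in 6 of 7 and was at -0.75 after normexp, a model-based background correction to which an offset was added. *Egr1* passed only in the deposited table. The deposited table was made by the same steps as the main values, so its match with them is no separate check. Against control in serum depletion, *Myc* stayed past 2-fold in all 7, and *Fos* and *Egr1* in 6 of 7, with -0.85 and -0.50 after normexp. *Junb*, at -0.93 in the main values, fell past 2-fold in 5 of 7, with a range of -1.43 to -0.78. *Dusp6*, at -0.48, did so in 3 of 7, with a range of -1.24 to -0.32, and *Spry4* in 1. In GCDC over control *Myc* fell past 2-fold in 3 of 7, with a range of -1.24 to -0.52, and *Egr1* and *Spry4* in 1. The rise of *Dusp6* in GCDC held in 2 of 7, the deposited table and the common median of probes valid on every array. It was 0.22 to 0.86 in the other 5.

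**Figure D4:**
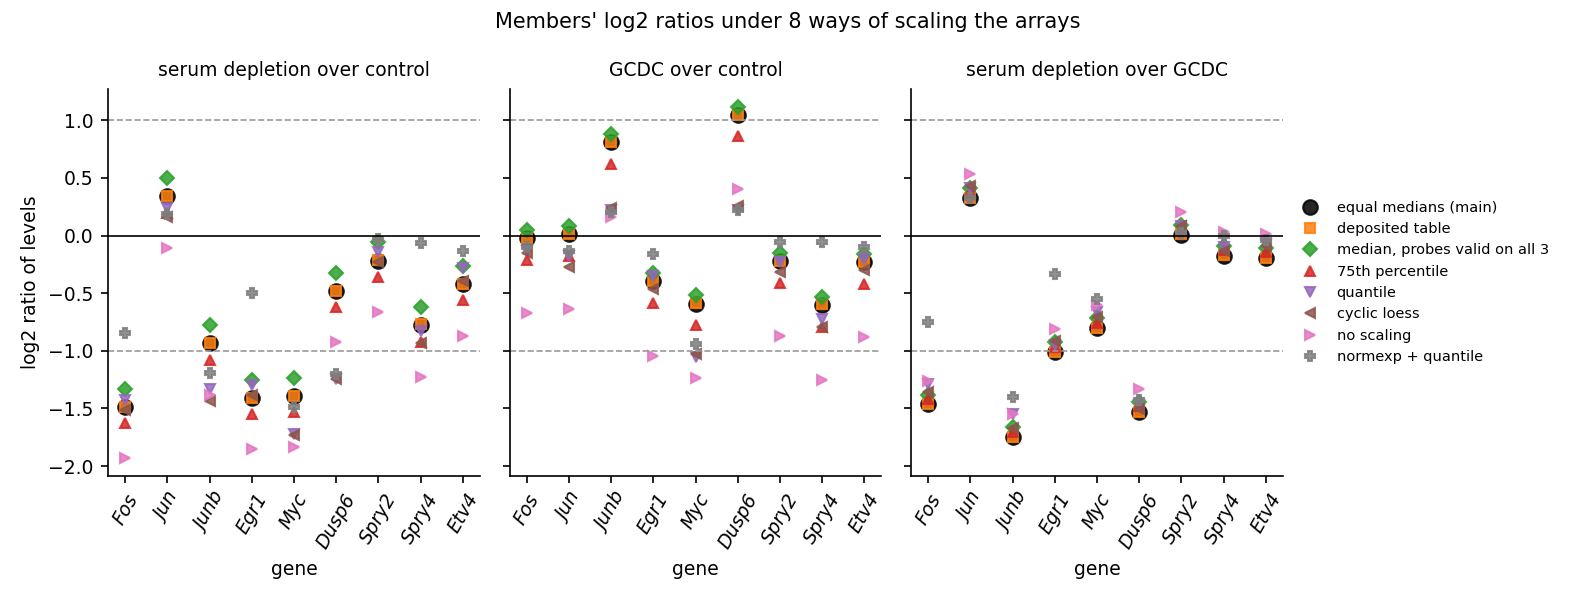
Log2 ratios of the 9 genes under 8 ways of making comparable arrays, with a symbol for each way, the main values in black and dashed lines at 2-fold. In serum depletion over GCDC the symbols of *Junb* and *Dusp6* all lie below the lower line, and in GCDC over control those of *Dusp6* run from 0.22 to 1.12.

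The other genes of the pathway were taken from 10 lists, with 1 probe per gene. Of all genes on the arrays, 14.0% rose and 10.9% fell in serum depletion over control, 13.6% rose and 8.22% fell in GCDC over control, and 2.14% were higher and 2.92% lower in serum depletion over GCDC. Each list count stands against these shares, which are not matched for level. Rises in GCDC were more common among bright probes, at 28.5% near the level of *Junb* and 43.0% near that of *Dusp6*. Among AP-1 and related factors, 1 of 14 fell in serum depletion over control and none rose. The gene that fell was *Atf2*, a cyclic AMP and stress responsive factor, from 103.5 to 42.6, and it also fell in GCDC, to 46.7. In GCDC *Maff*, a small Maf protein with no activation domain, rose 3.13-fold from 460.5 to 1442, and *Jund*, the Jun family member that is expressed in most cells, rose 2.06-fold from 551.9 to 1137. The 2 other Fos family members measured did not fall with *Fos*, with *Fosb* at 0.77 and 0.83 and *Fosl2* at 0.57 and 0.37 on the log2 scale in serum depletion and GCDC. *Atf3*, a stress-induced factor, was at 150.5, 89.8 and 196.9, and with *Maff* (507.6 in serum depletion) it made up the 2 of 14 that were more than 2-fold lower in serum depletion than in GCDC, at log2 ratios of -1.13 and -1.51.

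Of the other immediate early genes, 8 of 28 fell in serum depletion and 1 rose, and the median log2 ratio was -0.21. In GCDC 5 of 29 fell and 3 rose, with a median of -0.02. *Rhob*, a small GTPase of endosomes, went from 183.3 to 18.2 and 43.9 (log2 ratios -3.33 and -2.06), and *Zfp36*, which destabilises AU-rich mRNAs, from 46.9 to 6.34 and 8.04 (-2.88 and -2.54). *Plk2*, a Polo-like kinase, fell on both treated arrays, at -1.94 and -1.46. *Ier3*, an early gene tied to survival, rose from 2531 to 9142 (3.61-fold) in serum depletion and to 5665 (2.24-fold) in GCDC, so that the list held strong changes in both directions. The other genes that fell in serum depletion were *Ier2* (from 190.5 to 95.1), *Klf10* (-1.16), *Nr4a1* (-1.22), *Plk3* (-1.31) and *Ptgs2* (-1.03). In GCDC *Arc* (-1.69) and *Ptgs2* (-1.55) also fell, and *Ccn2* (1.16) and *Csrnp1* (1.45) also rose. Between the treatments, 3 of 28 were more than 2-fold lower, *Rhob* (-1.27), *Plk3* (-1.15) and *Ier2* (-1.12), and *Arc* was higher (1.02), where 2.92% and 2.14% of all genes were. *Ier2* and *Plk3* thus had values like those of *Fos*, low in serum depletion and within 2-fold of control in GCDC, at 0.12 and -0.16.

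Of the other ERK feedback and target genes, 3 of 23 fell and 2 rose in serum depletion, and 1 of 22 fell and 4 rose in GCDC, with medians of 0.10 and 0.35. In serum depletion these shares are near the 10.9% and 14.0% of all genes. *Epha2*, an ephrin receptor, fell on both treated arrays, from 421.0 to 69.0 and 141.0. *Spry1*, another Sprouty gene, fell in serum depletion (-1.22) and was at -0.78 in GCDC. *Dusp2*, a nuclear phosphatase of ERK, rose 7.26-fold and 2.92-fold from a control level of 7.38, and *Spred3*, a Sprouty-related inhibitor, rose 6.61-fold and 3.43-fold from 14.7. *Ccnd1*, which encodes cyclin D1, and *Dusp7*, a cytoplasmic ERK phosphatase, rose in GCDC as well, at 1.30 and 1.08. *Dusp5*, another nuclear ERK phosphatase, was the gene of this list furthest apart between the treatments, with levels of 188.3, 42.1 and 225.4. It fell in serum depletion (-2.16), was within 2-fold of control in GCDC (0.26) and was 5.36-fold lower in serum depletion than in GCDC (-2.42). The phosphatase *Dusp1* had log2 ratios of -0.40 and 0.38 and the Ets factor *Etv5* of -0.28 and 0.34, so that both lay on opposite sides of control within 2-fold. Between the treatments *Dusp5* and *Epha2* (-1.03) were the 2 of 22 that were lower and *Dusp2* (1.31) the 1 that was higher, where 2.92% and 2.14% of all genes were.

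Upstream of these genes, *Egfr*, the receptor of the EGF in the medium, rose from 182.8 to 823.8 in serum depletion (4.51-fold) and to 530.1 in GCDC (2.90-fold). It was the 1 gene that rose among 15 and 17 genes of the cascade compared, and 4 and 5 fell. *Nras*, a Ras GTPase, fell from 239.9 to 53.9 and 86.6, *Ptpn11*, a phosphatase that relays receptor signals to Ras, from 62.3 to 11.2 and 15.8, and *Rps6ka3*, a kinase activated by ERK, from 149.6 to 56.1 and 70.6. *Shc1*, a receptor adaptor, also fell (-1.25 and -1.06), and *Erbb2*, a partner of the EGF receptor, fell in GCDC (-1.93) and was not valid in serum depletion. *Map2k1* and *Map2k2*, the MEK kinases, stayed within 2-fold of control, at -0.73 and 0.90 in serum depletion and -0.06 and 0.98 in GCDC. None of the 15 genes compared was more than 2-fold apart between serum depletion and GCDC. The median span of the cascade genes was 74.8 kb, and in the class of genes over 50 kb 17.2% of probes fell in serum depletion and 14.4% in GCDC.

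**Figure D5:**
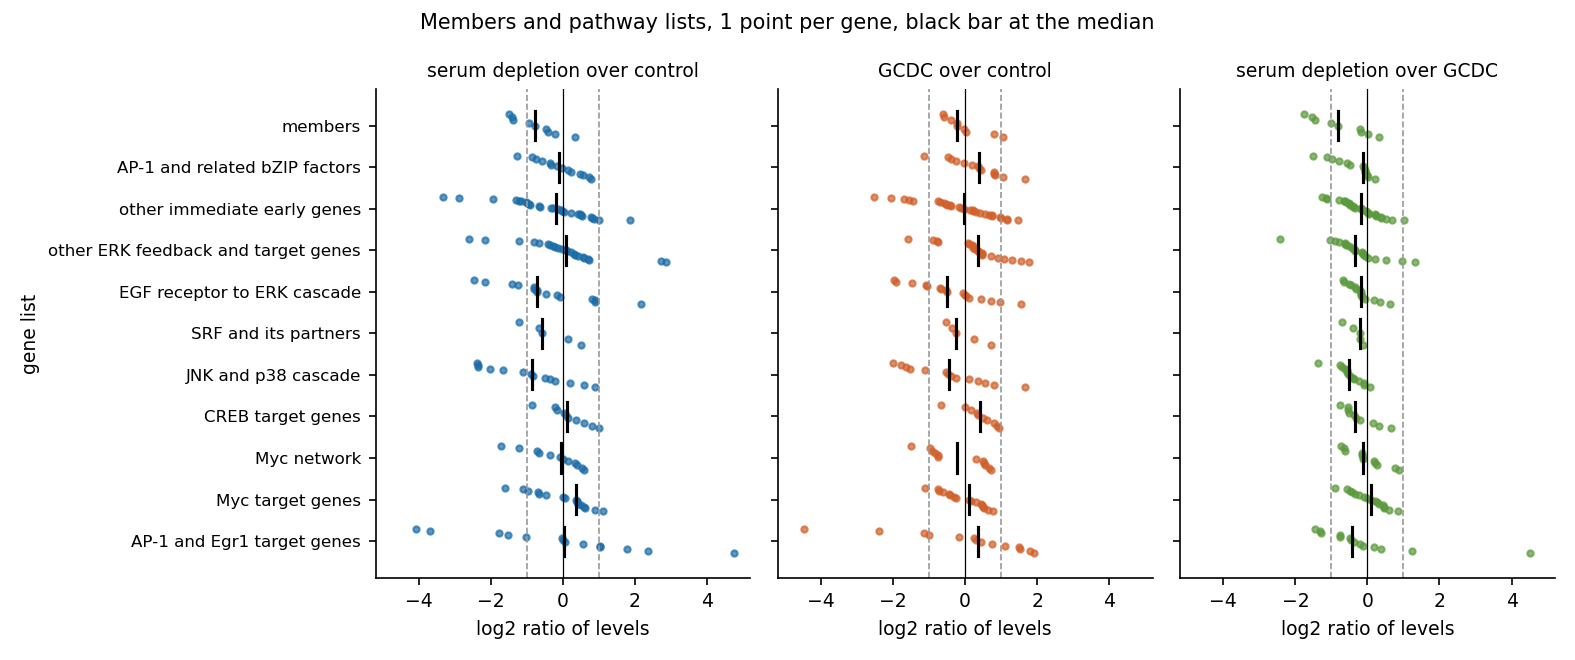
Log2 ratios of the 9 genes (first line) and of 10 pathway lists, 1 point per gene, for the 3 comparisons, with a black bar at each median and dashed lines at 2-fold. The median of the 9 genes is -0.78 in serum depletion over control and -0.80 in serum depletion over GCDC, and points of the EGF receptor to ERK cascade stay within 2-fold between the treatments.

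Of the stress kinase cascade of JNK and p38, 6 of 14 genes fell and none rose in serum depletion, and 5 fell and 1 rose in GCDC, where 10.9% and 8.22% of all genes fell. The median span of these genes was 58.5 kb, in the class over 50 kb where falls were more common (17.2% and 14.4% of probes). *Mapk14*, the main p38 kinase, went from 83.7 to 15.9 and 24.4, *Mapkapk2*, its substrate kinase, from 108.1 to 21.1 and 34.4, and *Map3k7*, an upstream kinase, from 78.5 to 19.4 and 27.1. *Map3k1* also fell (-2.36 and -1.99), and its levels on the treated arrays, 1.57 and 2.03, were close to the limit of validity. *Mapk13*, another p38 kinase, was the 1 that rose in GCDC, at 1.66. *Mapk8*, a JNK kinase that phosphorylates Jun, was at 39.1, 21.8 and 57.0 and was the 1 gene of this list more than 2-fold lower in serum depletion than in GCDC, at -1.38. Among the 5 genes of serum response factor and its partners, *Mrtfb* fell in serum depletion (-1.23), where its level was close to the limit of validity at 1.57, and none changed in GCDC. Of 10 genes of the cyclic AMP response, *Crem* rose in serum depletion, by 2.02-fold to a level of 5.18, and none changed in GCDC.

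Around *Myc*, its DNA-binding partner *Max* fell in serum depletion from 164.4 to 50.1 (-1.71) and was at 83.5 (-0.98) in GCDC, and *Mga*, a repressor that binds Max, fell on both treated arrays (-1.23 and -1.50). The other 10 of the 12 network genes stayed within 2-fold of control on both. Of 17 known targets of Myc, 2 fell and 1 rose in serum depletion and 1 fell in GCDC, with medians of 0.35 and 0.10. These falls are near the shares of all genes, 10.9% and 8.22%. *Odc1*, the first enzyme of polyamine synthesis, fell in serum depletion from 655.8 to 304.7 (-1.11), as did *Tfrc*, the transferrin receptor, from 507.0 to 165.8 (-1.61). *Nme1*, a nucleoside diphosphate kinase, rose 2.16-fold in serum depletion, and *Cad*, an enzyme of pyrimidine synthesis, fell in GCDC (-1.12).

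Of 14 known targets of AP-1 and Egr1 compared, 5 rose and 5 fell in serum depletion, and 5 rose and 3 fell in GCDC, where 14.0% and 10.9% of all genes rose and fell in serum depletion and 13.6% and 8.22% in GCDC. *Thbs1*, a matrix protein, fell from 176.2 to 10.4 and 7.98, and *Cd44*, the hyaluronan receptor, from 259.9 to 20.3 and 49.1. *Hbegf*, a ligand of the EGF receptor, rose 3.43-fold and 3.75-fold, from 179.2 to 614.7 and 672.8. *Mmp13*, a collagenase, rose from 3.12 to 84.3 in serum depletion and was at 3.66 in GCDC, so that this target was high on the array where *Fos* was low. *Timp1*, an inhibitor of metalloproteinases, rose on both treated arrays (1.04 and 1.81), as did the growth factor gene *Pdgfa* (2.03-fold and 2.82-fold) and *Mmp10* (2.35 and 1.10), while *Pdgfb* fell on both (-1.51 and -1.13). The level of *Mmp10* was close to the limit of validity on the control array, at 1.45, and was 7.40 in serum depletion and 3.12 in GCDC. *Plau*, which encodes urokinase, fell in serum depletion from 36.3 to 10.7 (-1.77) and was at 18.2 in GCDC, just within 2-fold of control. *F3*, which encodes tissue factor, rose in GCDC (1.52) and was at 0.06 in serum depletion. *Ereg*, another ligand of the EGF receptor, fell in serum depletion (-1.01) and was at 0.30 in GCDC. *F3*, *Ereg* and *Cd44* were the 3 of 14 more than 2-fold lower in serum depletion than in GCDC, at -1.46, -1.31 and -1.27, and *Mmp13* (4.52) and *Mmp10* (1.25) were the 2 that were higher, where 2.92% of all genes were lower and 2.14% higher.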

How the data were processed

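RNA of control, serum-depleted and GCDC-treated BECs was measured on 1 one-colour array each, and the samples were grouped by their labels. The authors scanned the arrays and deposited the median intensity of each of 27456 spots at 635 nm, with no background subtracted. Their second form of the data, also deposited, is a matrix of scaled intensity from which the blank mean was taken away, in which invalid probes are empty and the median is 25. Here the same steps were run again on the spot intensities, with the mean and SD of the 2736 blanks taken between their 5th and 95th percentiles, and the valid probes were those of the deposited table on each array (20947, 20215 and 20641). The scaling factors were 0.615, 0.838 and 0.964. On the GCDC array 3 gene spots that the scanner marked were left out. Probes were named by the platform annotation, updated through gene identifiers (20690 with 1 symbol, 2783 with none). Where a gene of a list had several probes, the brightest on average was taken.

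The genes and the lists were chosen with earlier results of these data known. All 9 genes were named, and of each list up to 4 genes with the largest mean change past 2-fold, with others named to spell out small counts, to set a family beside a described gene or for lying on opposite sides of control, after their values were seen. The comparison with probes of like level and with gene span was also added later. Of the 10 lists, the markers of the other cell types and the housekeeping genes, members not found on the array are not analysed here. The number of arrays limits the precision. The steps were tested on simulated data. Alternatives were a limit of 5 SD, no filter on validity, cyclic loess, quantile normalization, normexp (offset 50) followed by quantiles, no scaling, equal 75th percentiles, a common median of the probes that passed on every array, the matrix as deposited, 1 probe per gene, and thresholds of 1.5-fold and 4-fold. The tools were limma 3.58.1 in R 4.3.3, and pandas 2.3.3, numpy 2.4.6 and matplotlib 3.10.9 in Python 3.11.15.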

Additional observations from a re-analysis of the deposited data

Results flagged for a closer look

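Of 160 genes, the 9 and those of the 10 lists with both ratios, 10 lay on opposite sides of control in the 2 treatments by more than their spot SD, and these differences were not tested, since each treatment had 1 array. On the log2 scale *Junb* was at -0.93 in serum-depleted and 0.81 in GCDC-treated BECs relative to control, and *Dusp6* at -0.48 and 1.05. Among the list genes, *Dusp5* had -2.16 and 0.26, *Ereg* -1.01 and 0.30, *Mapk8* -0.84 and 0.54, *Atf3* -0.75 and 0.39, *Mafg*, which encodes a small Maf protein, -0.35 and 0.44, *Dusp1* -0.40 and 0.38, and *Etv5* -0.28 and 0.34. *Fbl*, which encodes the nucleolar protein fibrillarin, had 0.42 and -0.43. The lower value was that of serum depletion in 9 genes and that of GCDC in 1, *Fbl*. The same count was not made over all probes, so whether these numbers differ from the arrays at large was not tested. Over all probes the median log2 ratio of serum depletion over GCDC was -0.08. The spot SD leaves out the scaling between arrays, which moved the median log2 ratio of all probes in GCDC over control to between -0.41 and 0.31. *Junb* and *Dusp6* kept their signs to control under all 7 other ways of making the values. The signs of the list genes were not compared in this way, so their opposite sides may depend on the scaling.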

How the results depend on the processing

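With 1 array a condition no replicate could be left out. No paired analysis was possible because each condition has 1 array. The median log2 ratio of all probes in serum depletion over control moved from 0.16 to between -0.28 and 0.32 with the scaling, and in GCDC over control from 0.23 to between -0.41 and 0.31. The share of rises among changed probes moved from 55.0% in serum depletion and 60.4% in GCDC to between 23.0% and 66.3% and between 12.2% and 66.2%, and that of higher probes in serum depletion over GCDC from 43.0% to between 36.3% and 70.4%. In serum depletion over control 5 of the 9 genes fell, and not 3, after quantile normalization, after cyclic loess, with no scaling and at 1.5-fold. The added genes were *Junb* and *Dusp6* after quantile normalization and cyclic loess, and *Junb* and *Spry4* with no scaling and at 1.5-fold. After normexp the 3 that fell were *Myc*, *Junb* and *Dusp6*. In GCDC over control none rose after quantile normalization, cyclic loess, normexp, at equal 75th percentiles, with no scaling or at 4-fold, and 2 rose at 1.5-fold. There 1 fell after quantile normalization and after cyclic loess (*Myc*), 2 at 1.5-fold (*Myc* and *Spry4*) and 3 with no scaling (*Egr1*, *Myc* and *Spry4*). In serum depletion over GCDC 2 were lower after normexp. At 4-fold 0 genes were past the threshold in any comparison. Over the 10 lists together 11 genes rose and 32 fell in serum depletion, and 16 rose and 22 fell in GCDC. The rises in serum depletion became 7 at equal 75th percentiles and with no scaling, 5 after normexp and 17 with the common median of probes that passed on every array, and the falls 55 with no scaling and 18 after normexp. The rises in GCDC became 9 after quantile normalization, 7 after cyclic loess and 4 with no scaling and after normexp, and the falls 55 with no scaling. No scaling and another factor shift every ratio of a treatment alike, and the offset of normexp shrinks the ratios of dim probes by its construction, while the cause of the other changes was not tested. None of the ratios past 2-fold of the 9 genes changed sign under the 7 other ways of making the values, and for list genes only the counts were compared.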

Other observations

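Genes often used as references moved apart on these arrays. Relative to control, the log2 value of *Actb* was 0.19 in serum-depleted and 0.49 in GCDC-treated BECs, of *Gapdh* -0.65 and -0.13, of *Tbp* -0.37 and 0.18, of *Ppia* 0.95 and 0.93, of *Hprt* 1.20 and 1.40, of *Rpl13a* 1.26 and 0.80 and of *Ywhaz* -3.47 and -2.55. Of 11 such genes compared, 2 rose and 1 fell in serum depletion, and 1 rose and 1 fell in GCDC, so the ratios of *Fos*, *Egr1* and *Myc* would differ with the reference gene chosen. In serum depletion over GCDC 1 of the 11, *Pgk1* (-1.02), was lower and 0 were higher, where 2.92% and 2.14% of all genes were. The median of these genes there was -0.29, against -0.08 over all probes. Of 12 markers of the biliary epithelium compared, 2 fell and 0 rose in serum depletion, where 10.9% of all genes fell and 14.0% rose. In GCDC 2 fell and 1 rose, where 8.22% of all genes fell and 13.6% rose. The water channel gene *Aqp1* (-1.76 and -3.17) and the stem cell marker *Prom1* (-2.37 and -1.54) fell on both treated arrays. *Krt19* (-0.18 and 1.05) rose in GCDC, and the rest of this list stayed within 2-fold of control on both. In serum depletion over GCDC *Krt19* was lower (-1.22) and *Aqp1* higher (1.41), and the median of the 12 was -0.35. Of the other markers compared in serum depletion and GCDC, 2 of 11 and 1 of 11 hepatocyte genes rose, 0 of 7 and 0 of 8 macrophage genes, 2 of 6 and 1 of 5 lymphocyte genes, 2 of 11 and 0 of 10 mesenchymal genes and 2 of 7 and 2 of 8 endothelial genes, where 14.0% and 13.6% of all genes rose. The 1 of these markers that fell was the mesenchymal gene *Acta2*, in GCDC, at -1.50, where 8.22% of all genes fell.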
